A study of Caenorhabditis elegans with 2 samples.

Results

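The heterochronic genes are the regulators that tell the cells of Caenorhabditis elegans which larval stage they are in. The 10 examined here (lin-14, lin-28, lin-29, lin-41, lin-42, lin-46, lin-66, hbl-1, daf-12 and kin-20) were taken by name from the Ensembl annotation, out of 19973 nuclear protein-coding genes. Around them lay 15 of the 2182 regions that the authors retained for the zinc finger transcription factor LSY-2. The data are chromatin immunoprecipitation followed by sequencing (ChIP-seq) of eGFP-LSY-2 in whole L2 larvae, in 1 group of 2 biological replicates, with no second condition. The worms were of strain OP240, unc-119(ed3) III with the integrated array wgIs240, and pooled males and females of unknown age. Both replicates thus carried the tagged transgene and the unc-119 allele, and the control library that the authors called regions against was not analysed here. The labels name lsy-2 itself as the antibody target, but describe the assay as directed at eGFP-lsy-2. Nothing in the labels says which promoter drives the transgene or in which cells it is expressed. Because whole larvae were used, strong binding in few cells and weak binding in many cannot be told apart.

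For each gene, a window was read from 5 kb upstream of its annotated 5′ end to its 3′ end. A region is given by its summit, its signal and its rank. The signal is the authors' value from their peak caller, in the caller's own unit, and read depth is unknown. Each replicate has a list of 30000 regions, peaks and background alike, and so does the pair of replicates called as one (the joint list). From these the authors retained the thresholded list by a limit on the irreproducible discovery rate, a measure of how well ranks agree between replicates. It held the 2182 regions of highest signal in the joint list, and a region in it need not rank alike in both replicates. Ranks below are among the regions of the same list, with 1 the strongest. Replicate signals are on separate scales, so they are read against each list's own ranks.

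The heterochronic pathway works as a chain of temporal switches, best known in the lateral seam cells of the skin. Early in larval life LIN-14, LIN-28 and HBL-1 promote early fates, and small RNAs such as lin-4 turn them off as larvae grow. LIN-41 then holds back LIN-29, which triggers the adult program, while steroid signalling through DAF-12 couples the clock to growth conditions. LIN-42 and KIN-20 are relatives of circadian clock proteins and act on the rhythm of molting and on stage identity.

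LSY-2 regions were found at most of these genes, and most of them were of modest strength within the list. Of the 10 genes, 8 held a thresholded summit in the gene window, against 19.4% of all protein-coding genes, and 5 held at least 2, against 3.01%. The genes with none were hbl-1 and lin-29. Among the 15 regions, 2 pairs overlapped, at lin-46 and lin-66, and each summit was counted, as over all genes. The pair was all that lin-46 had. The windows were long, from 6.88 to 36 kb with a median of 13.4 kb, against a median of 7.03 kb over all genes, and a longer window has more room for a summit. Per 10 kb of window there were 0.874 thresholded summits at the 10 genes, against 0.28 over all genes. On the X chromosome 3 of 4 genes had a summit (lin-14, daf-12 and kin-20), where 13.2% of X-linked genes had one. On the autosomes it was 5 of 6, against 20.4%. A narrower promoter window took in 1000 bp before and 200 bp after the annotated 5′ end. There 4 of the 10 genes held a summit, compared with 9.85% of all genes: lin-14, lin-28, lin-46 and lin-66. For 2 of these the window mattered, since with 500 bp upstream and 100 bp downstream only lin-14 and lin-66 remained. No test was made of these counts, because the genes were listed with results of these data known.

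The signal of the 15 regions ran from 50.4 to 177 with a median of 64.2. Over all 2182 thresholded regions it ran from 45.8 to 6690 with a median of 83.4. The strongest regions lay at lin-28 (177) and lin-41 (145), followed by lin-46 (90.3) and kin-20 (84). These 4 genes alone had a region among the 1091 strongest. The strongest regions of lin-14 (72.6), lin-66 (68.4), lin-42 (64.2) and daf-12 (57.1) were close together in signal.

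**Figure D1:**
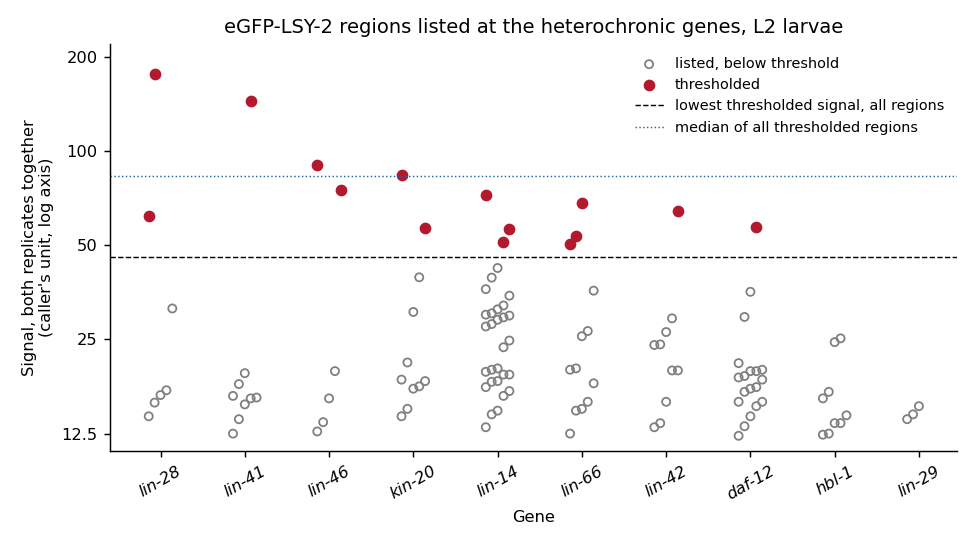
Signal of every region of the joint list in the window of each gene, on a log axis in the caller's unit; filled points are thresholded regions and open circles are listed regions below the threshold. The points of lin-28 at 177 and of lin-41 at 145 stand above the others, and hbl-1 and lin-29 have open circles alone.

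The genes of the RNA-binding proteins LIN-28 and LIN-41 had the strongest regions. LIN-28 promotes second-stage fates and is known in many animals as an inhibitor of microRNA maturation. At lin-28 (WBGene00003014, chrI:8407630-8410804) the strongest region, chrI:8409802-8410165, had a signal of 177 and rank 414. Its signal was 98.5 in replicate 1 (rank 448) and 76.9 in replicate 2 (rank 385), so both replicates placed it at nearly the same rank. Its summit lay 820 bp downstream of the annotated 5′ end, in an intron of the longer transcript. That position is 64 bp upstream of the 5′ end of the shorter annotated transcript. A second and weaker region, chrI:8411159-8411522, lay 537 bp upstream of the gene. There the signal was 62, with 37.8 in replicate 1 and 21.7 in replicate 2.

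LIN-41 is a TRIM-NHL protein that represses translation of its target transcripts, lin-29 among them. At lin-41 (WBGene00003026, chrI:9334800-9342496) 1 region was thresholded, chrI:9343717-9344080, with a signal of 145 and rank 525. Replicate 1 gave 94.8 (rank 466) and replicate 2 gave 45.4 (rank 796). The summit lay 1403 bp upstream of the annotated 5′ end, outside the promoter window, and no other protein-coding 5′ end was nearer. The next strongest region of the joint list in the lin-41 window had a signal of 19.5 (rank 11115), 222 bp into the gene, far below the first.

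The zinc finger transcription factors of the Hunchback and EGR types, HBL-1 and LIN-29, had no thresholded region. HBL-1, a relative of Hunchback in Drosophila, promotes second-stage fates and is turned off later by microRNAs. At hbl-1 (WBGene00001824, chrX:5822142-5827755) the strongest listed region had a signal of 25.2 and rank 5974 of 30000, with its summit 1875 bp upstream of the gene. Its summit had 17.2 in replicate 1 (rank 5168), but the region of replicate 2 there was near the bottom of the list, with 6.14 (rank 29771). The strongest in replicate 2 was another region, with 12.1, 1681 bp into the gene. The replicates thus did not share a leading region at hbl-1. LIN-29 drives the switch from larva to adult. At lin-29 (WBGene00003015, chrII:11917642-11935343) the strongest listed region had a signal of 15.3 and rank 19551. In replicate 1 the strongest, 17.7 (rank 4839), lay 2237 bp upstream of the gene, where neither replicate 2 nor the joint list had a region. Replicate 2 had at most 10.4 (rank 9444), 8396 bp into the gene.

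LIN-14 is a DNA-binding nuclear protein that sets first-stage fates and is the classical target of lin-4. It had 3 thresholded regions along the gene (WBGene00003003, chrX:11465560-11485871). The region at the 5′ end, chrX:11465245-11465608, had its summit 133 bp upstream and a signal of 56.5, with 25.2 in replicate 1 (rank 2509) and 27.2 in replicate 2 (rank 1535). The strongest, chrX:11467343-11467706, lay 1965 bp into the gene, in an intron of the 1 transcript, of 2 annotated, that spans it. Its signal was 72.6, with 43.3 in replicate 1 (rank 1277) and 27.7 in replicate 2 (rank 1498). The strongest region thus had a similar rank in both replicates, while the 5′ one ranked lower in replicate 1. The last, chrX:11473186-11473549, lay 7808 bp into the gene, also in an intron of 1 of the 2 transcripts, with a signal of 51.4. It was carried by replicate 1, with 44.1 (rank 1252), against 10.1 in replicate 2 (rank 10282). The bases within 50 bp of the summits at the 5′ end and in the intron at 1965 bp are shown as the promoter region and the strongest region of the gene. They are read on the strand of the gene, and capitals, here and below, mark the motifs described later.
lin-14 region 1, chrX:11465377-11465477, + strand: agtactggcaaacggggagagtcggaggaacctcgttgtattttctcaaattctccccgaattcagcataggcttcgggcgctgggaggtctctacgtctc
lin-14 region 2, chrX:11467475-11467575, + strand: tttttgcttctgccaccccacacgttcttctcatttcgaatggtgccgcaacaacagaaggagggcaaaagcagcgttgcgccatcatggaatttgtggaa
Neither sequence held any of the motifs searched, so no letters are in capitals.

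LIN-46 is a scaffold-like protein, related to gephyrin, that acts downstream of LIN-28. Upstream of lin-46 (WBGene00003031, chrV:12968855-12970730) lay a pair of overlapping regions, chrV:12967820-12968183 and chrV:12968052-12968415. Their summits were 853 and 621 bp upstream of lin-46. Both were nearer to R186.8, a gene on the other strand, at 20 and 252 bp upstream of its 5′ end. The region nearer to R186.8 had a signal of 90.3, with 61.6 in replicate 1 (rank 837) and 27.8 in replicate 2 (rank 1493). The other had 75, with 62.7 in replicate 1 (rank 818) and 14.1 in replicate 2 (rank 4359). In replicate 2 the pair was thus uneven, whereas in replicate 1 it was even. Neither region can be assigned to lin-46 rather than to R186.8 by position. Both sequences are shown because each holds the same 6 letters once, in opposite orientations.
lin-46 region 1, chrV:12967952-12968052, + strand: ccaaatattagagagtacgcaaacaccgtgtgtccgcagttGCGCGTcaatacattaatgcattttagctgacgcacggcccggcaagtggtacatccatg
lin-46 region 2, chrV:12968184-12968284, + strand: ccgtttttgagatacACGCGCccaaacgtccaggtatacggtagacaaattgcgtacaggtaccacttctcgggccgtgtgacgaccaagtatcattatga

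LIN-66 is a pathway protein known for lowering lin-28 activity. At lin-66 (WBGene00001562, chrIV:13888079-13893986) another overlapping pair, chrIV:13887435-13887798 and chrIV:13887637-13888000, lay 462 and 260 bp upstream. The signals of the pair were 68.4 and 53.5. Replicate 1 listed no summit inside the farther region, and 32.9 (rank 1811) in the nearer one. Replicate 2 had its strongest summit, 42.1 (rank 893), in the stretch that both regions cover, so that value stands for both. The upstream stretch of lin-66 was therefore found by each replicate, but its summit was placed differently. A further region, chrIV:13893177-13893540, lay 5280 bp into the gene in the annotated 3′ untranslated part, with a signal of 50.4, 28 in replicate 1 and 22.7 in replicate 2. It was the weakest of the 15 regions and the single one with its summit in an annotated exon of a protein-coding gene. The upstream sequences are shown because they held more of the motifs than those of any other gene printed here.
lin-66 region 1, chrIV:13887567-13887667, + strand: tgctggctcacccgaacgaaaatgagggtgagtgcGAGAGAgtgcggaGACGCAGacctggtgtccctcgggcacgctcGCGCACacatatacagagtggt
lin-66 region 2, chrIV:13887769-13887869, + strand: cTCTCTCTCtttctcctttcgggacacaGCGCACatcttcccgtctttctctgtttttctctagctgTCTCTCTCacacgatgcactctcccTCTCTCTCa

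The relatives of circadian clock proteins are LIN-42 (PERIOD) and KIN-20 (casein kinase 1, the kinase called Doubletime in Drosophila). Their regions lay inside introns of the few annotated transcripts that span them. At lin-42 (WBGene00018572, chrII:1233236-1252359) the single region, chrII:1246846-1247209, lay 5331 bp into the gene. Its signal was 64.2, with 25.2 in replicate 1 (rank 2508) and 35.9 in replicate 2 (rank 1082), and it was thus carried more by replicate 2. Of 7 annotated lin-42 transcripts, 2 spanned the summit. It lay 2993 bp upstream of the nearest 5′ end of any lin-42 transcript. At kin-20 (WBGene00002203, chrX:15268602-15277764) the stronger region, chrX:15275337-15275700, lay 2245 bp into the gene. It had a signal of 84, with 41.1 in replicate 1 (rank 1356) and 34.9 in replicate 2 (rank 1127). The weaker, chrX:15276698-15277061, lay 884 bp into the gene, with a signal of 56.8, 29.2 in replicate 1 (rank 2078) and 30.4 in replicate 2 (rank 1341). Each kin-20 summit was spanned by 1 of 8 annotated transcripts, and the stronger lay 1730 bp upstream of the nearest kin-20 transcript's 5′ end. Both kin-20 regions were among the top regions of each replicate. The sequence of the stronger kin-20 region is shown because its summit lies on a simple repeat of GT with 23 units. Of the 2182 thresholded regions, 3.76% had a repeat of at least 6 units of 2 letters within 50 bp of the summit, and among the 15 regions it was this one alone. Its part in the signal was not tested. The lin-42 sequence, from the gene's own strand, is shown beside it as an intronic region without such a repeat.
kin-20 region 2, chrX:15275469-15275569, - strand: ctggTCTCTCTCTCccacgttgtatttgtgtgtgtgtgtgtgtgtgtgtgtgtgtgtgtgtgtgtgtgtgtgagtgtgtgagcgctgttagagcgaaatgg
lin-42 region 1, chrII:1246978-1247078, - strand: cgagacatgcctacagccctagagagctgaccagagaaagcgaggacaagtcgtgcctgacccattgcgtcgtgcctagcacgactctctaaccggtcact

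DAF-12 is the nuclear hormone receptor for dafachronic acids, steroid hormones that let development proceed instead of entering the dauer diapause. At daf-12 (WBGene00000908, chrX:10635908-10666875), the longest of the 10 genes, 1 region was thresholded, chrX:10637456-10637819. Its summit lay 1730 bp into the gene, in an intron of the 1 transcript, of 10 annotated, that spans it. The signal was 57.1, with 26.7 in replicate 1 (rank 2328) and 30 in replicate 2 (rank 1362). Although the window of daf-12 was the longest, it held 0.278 thresholded summits per 10 kb, the lowest of the 8 genes that had any. The sequence at its summit, rich in G and C at 61.4%, is shown as the only one of the gene.
daf-12 region 1, chrX:10637588-10637688, + strand: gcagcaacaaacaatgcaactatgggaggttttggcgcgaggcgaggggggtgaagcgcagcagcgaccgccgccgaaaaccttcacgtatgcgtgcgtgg

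**Figure D2:**
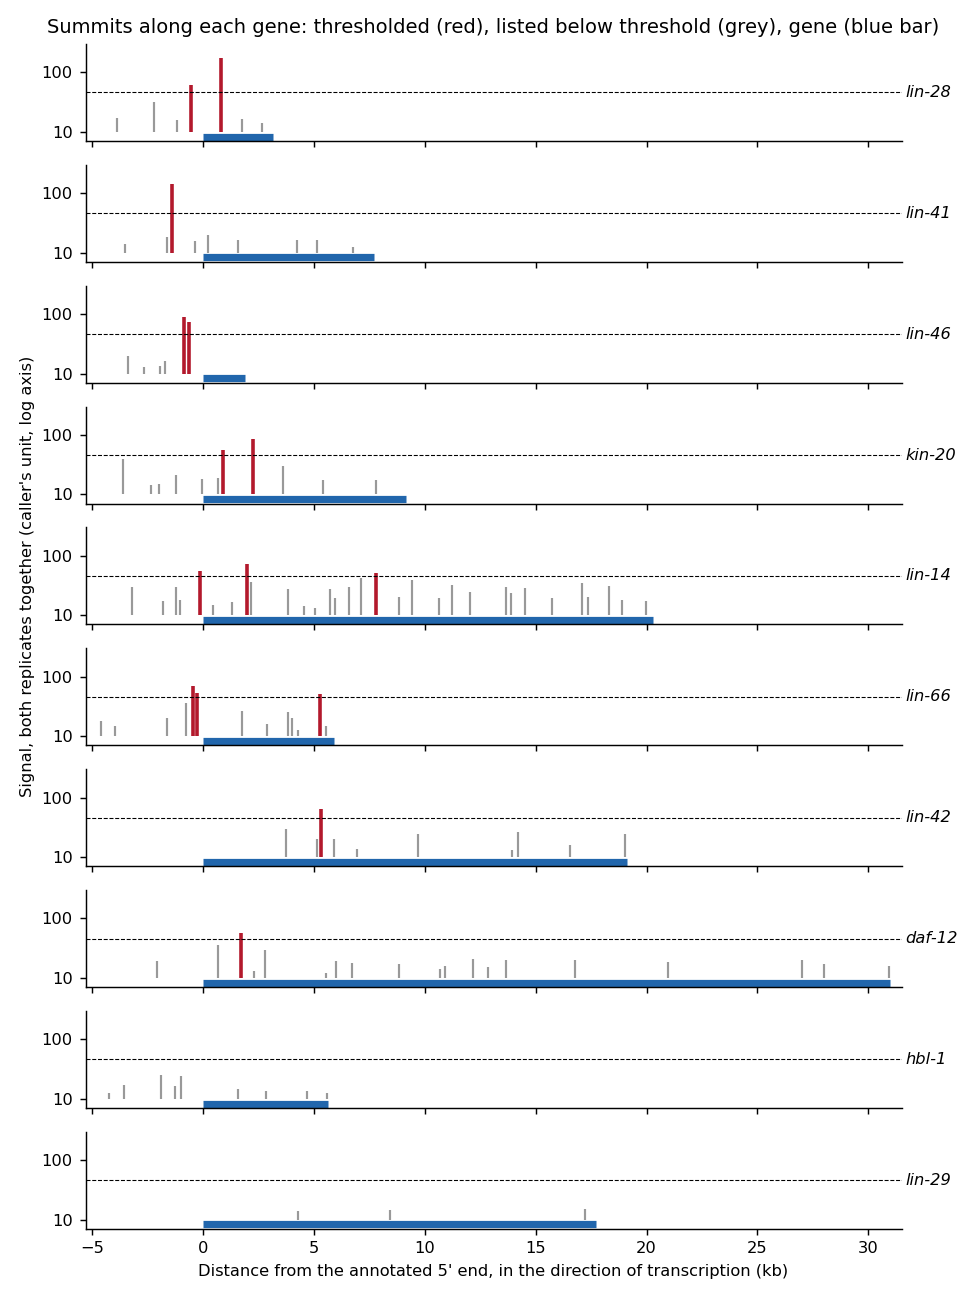
Summits of the joint list along each gene, placed by distance from the annotated 5′ end in kb in the direction of transcription; the height is the signal on a log axis in the caller's unit, red bars are thresholded, grey bars are below the threshold (dashed line), and blue bars are the genes. The red bars of lin-41 and lin-46 lie upstream of the gene, those of kin-20, lin-42 and daf-12 lie inside it, and lin-28, lin-14 and lin-66 have both.

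In position the regions were split evenly between upstream sequence and introns. Read against protein-coding genes alone, 7 of the 15 summits lay outside them, 7 in introns, 1 in an untranslated exon part and 0 in coding exons. Among all thresholded summits 18.8% were intronic and 75.3% outside protein-coding genes. The windows by which the 15 were chosen take in whole genes with long introns, and the part of that in this share was not tested. The intronic summits belonged to lin-14, lin-28, lin-42, daf-12 and kin-20, and each was spanned by 1 or 2 of the gene's annotated transcripts. Of the 15 summits, 13 had the same heterochronic gene as the nearest protein-coding 5′ end, the exceptions being the pair shared with R186.8. Summits within 200 bp of the annotated 5′ end of a noncoding RNA gene (Ensembl type ncRNA) were 6 of 15, against 14.5% of all thresholded summits. This limit of 200 bp was chosen after the data were seen. Among intronic summits, those within it were 5 of 7, against 23.2% of all 410 intronic ones. The 5 came from lin-14, lin-42 and kin-20 alone. They lay 5 bp from T25C12.7 and 186 bp from T25C12.6 in lin-14, 60 bp from F47F6.13 in lin-42, and 29 bp from F46F2.12 and 183 bp from F46F2.9 in kin-20. Outside introns, the summit at the 5′ end of lin-14 lay 122 bp from that of T25C12.8. T25C12.8, T25C12.7, F47F6.13 and F46F2.12 run on the strand opposite to their heterochronic gene, and T25C12.6 and F46F2.9 on the same strand. No function is annotated for these noncoding RNAs in the files used, and their transcription in these larvae was not measured.

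Most of the 15 regions were listed by each replicate, and fewer were among the strongest of both. Of the 15 regions, 10 overlapped one of the 2182 strongest regions of each replicate, against 76.8% of all thresholded regions. The other 5 were the 5′ and the last region of lin-14, the 3′ region of lin-66, and the regions of lin-42 and daf-12, all with a joint signal of 64.2 or less. The count of 10 fell to 8 when the replicate's summit had to lie inside the region. It was also 8 with an overlap of at least 50%, and no such share over all regions is given here. Taking each replicate's 2182 strongest regions by themselves, 6 genes had a summit in replicate 1 and 8 in replicate 2. The genes with one in replicate 2 but not in replicate 1 were lin-42 and daf-12, and neither replicate had one at hbl-1 or lin-29. The 6 genes with a summit in both replicates compare with 16.1% of all genes. Each replicate listed a summit inside 14 of the regions, and there the ratio of replicate 1 to replicate 2 had a median of 1.26 and ran from 0.701 at lin-42 to 4.44 at the region of the lin-46 pair nearer to lin-46. Over 2154 thresholded regions with both, the median was 1.43. The SD of the log2 ratio was 0.84 for the 14 regions and 0.55 for the 2154. The last lin-14 region, at 4.37, and the lin-46 region at 4.44 were the farthest from the overall ratio.

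**Figure D3:**
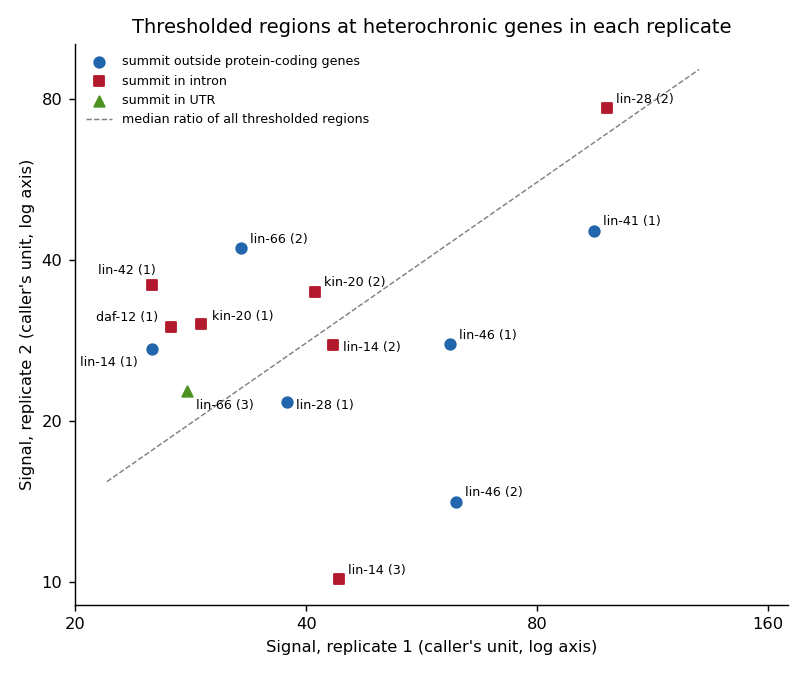
Signal of the 14 thresholded regions in which each replicate listed a summit, replicate 1 on the horizontal and replicate 2 on the vertical log axis, in the caller's unit; numbers in brackets count the regions of a gene in the direction of transcription, and the dashed line is the median ratio of all thresholded regions, 1.43. The last lin-14 region and the second lin-46 region lie farthest below the line, and the lin-28 region at 98.5 and 76.9 is the highest in both replicates.

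Below the threshold too, most of these genes had many listed regions. The windows of the 10 genes held 118 of the 30000 regions of the joint list, or 6.88 per 10 kb, against 2.99 per 10 kb over all genes. Over genes, the median was 8.12 per 10 kb for the 10 genes and 2.36 for all. The gene lin-14 was the densest, with 12.2 per 10 kb (12.6 in replicate 1 and 10.7 in replicate 2), higher than 99.7% of all genes. The gene lin-66 came next, with 11.9, but with 6.42 in replicate 1 and 11 in replicate 2. Then lin-46 (8.73), lin-28 (8.56), hbl-1 (8.48), kin-20 (7.77) and lin-41 (7.09) followed, and between them the order was not the same in the replicates. The gene daf-12 had 5.28 and lin-42 4.15 per 10 kb. At the other end lin-29 had 1.32 in each list, below the median of all genes, although its window of 22.7 kb was nearly as long as that of lin-14. The gene hbl-1 was thus densely covered in the joint list without a thresholded region, although with 3.77 in replicate 1 and 5.65 in replicate 2. By contrast lin-29 was low by both measures. The lists hold peaks and background together, so a region below the threshold is no peak by the authors' rule.

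**Figure D4:**
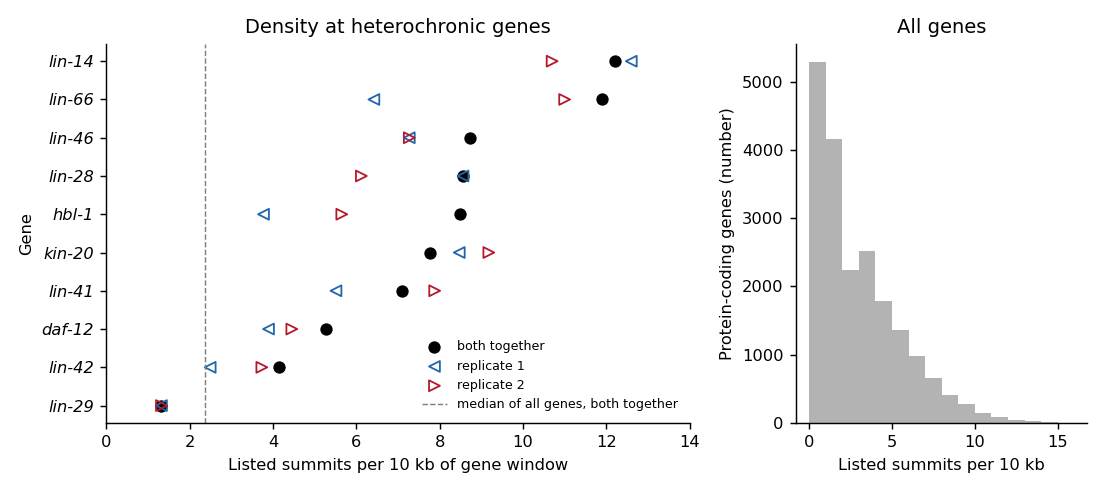
Left, listed summits per 10 kb of gene window at each gene for the joint list and for each replicate, with the median of all protein-coding genes as a dashed line; right, the number of all protein-coding genes by the same density in the joint list. All genes but lin-29 lie above the median of 2.36, and lin-14 and lin-66 are at 12.2 and 11.9.

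The bases at the summits were compared with those of all thresholded regions, within 50 bp of the summit and on both strands. Over the whole list, the 6-mers with the highest ratio of summits to flanking sequence 300 bp away were 3 words made mostly of alternating G and C. One of them, GCGCGC, was found in 2 of the 15 regions, at lin-14 and lin-66, against 9.26% of all regions. Another, GCGCAC, was found in 3, at lin-28 and lin-66, against 12.3%. The last, ACGCGC, was found in 2, the lin-46 pair printed above, against 15.9%. These motifs can overlap in a run of G and C. Among motifs not taken from the list, the repeat GAGAGA was found in 4 regions, at kin-20, lin-28 and lin-66, against 25.4% of all. The motif CTGCGTC was found in 1 region, the farther upstream one of lin-66, against 11.9%. The GATA-type motif TGATAA was found in 1, at lin-28, against 3.25%, and the E-box CACGTG in 0, against 2.8%. In the flanks of all regions the shares were 6.76% for GAGAGA, 0.894% for CTGCGTC, 9.49% for TGATAA and 1.79% for CACGTG. Over the whole list TGATAA was thus rarer at summits than in flanks, whereas the others were more frequent. The counts at the heterochronic genes run from 0 to 4 of 15 regions and were not tested against the shares of all regions. A match is only a match of letters, and the G and C content within 50 bp of the summits had a median of 50.5% (33.7 to 63.4%) at the 15 regions, against 47.5% over all.

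Other genes of the pathway were read in the same way, from a list of 27 that was also drawn up with earlier results known. Of the 23 protein-coding ones, 9 had a thresholded summit in the gene window, against 19.4% of all genes. For 6 of them it lay in the promoter window, where 9.85% of all genes had one. Several lay close to other genes. The region of nhl-2, which encodes a cofactor of microRNA silencing, had a signal of 484 (277 in replicate 1 and 203 in replicate 2), but its summit was nearer to tag-340. At tim-1, a relative of Timeless in Drosophila, the signal was 277 (187 and 78.8), and the summit was nearer to Y75B8A.23. The summit of ain-1, which encodes a GW182 protein of the microRNA complex, lay 896 bp upstream of its own 5′ end with a signal of 145 (77.2 and 70.8). The gene of DIN-1, a corepressor of DAF-12, had 3 thresholded summits. The strongest lay 705 bp upstream with a signal of 94.1 (59.1 and 40.1), another 2276 bp upstream with 78.7 (53.8 and 38.1), and the weakest 14252 bp into the gene with 53.9 (29.5 and 26.4). Those of myrf-1 (69.8; 290 bp upstream) and lep-2 (46.3; 105 bp upstream) were weaker. MYRF-1 is known to activate lin-4, and LEP-2 is a Makorin protein that lowers LIN-28 activity. The other 17 protein-coding genes had none there. No thresholded region (0 of 4) fell in the gene window of a listed microRNA gene, these being mir-241, mir-84, mir-48 and lin-4. Over all 261 annotated microRNA genes the share was 25.7%, so a count of 0 among 4 says little about these genes.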

How the data were processed

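ChIP-seq regions of eGFP-LSY-2 from 2 biological replicates of whole L2 larvae were used. Per the deposited lists of files, the authors called regions against a control alignment, on ce11 alignments of each replicate and of both together, and then applied an IDR threshold. Not given in the sources used here are aligner, caller and IDR limit. The deposited signal is the caller's value, with no stated scale between lists, and was used to rank and describe regions. The deposited −log10 q-value stood at its maximum of 3.63 for 97.6% of thresholded regions and was not used for ranking. The ce10 lists were not used here.

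Genes came from Ensembl release 115 (WBcel235, which is ce11) and bases from the RefSeq copy of WBcel235. Coordinates are counted from 1. Summits were counted in the gene and promoter windows, and neighbouring genes can share one. Values per replicate are those of its strongest region with a summit inside the thresholded region. Top regions of a replicate are as many as the thresholded list, 2182, and overlap means at least 1 bp. The 6-mers had to occur at 100 summits or more.

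The design has 1 group, so no comparison of conditions was tested. All results are counts and values. The genes and lists were chosen with earlier results of these data known. The named genes are the 10, the nearest gene to each of their summits, and the other pathway genes with a summit in the promoter window. The pathway genes in the closing observations, the 4 microRNA genes and the noncoding RNA genes beside summits were named after their values were seen. The limit of 6 repeat units and the distance of 200 bp to noncoding RNA genes were chosen after the data were seen. Alternatives were other windows, the upper 50% of regions, each replicate alone, and other overlaps and list lengths. Further ones were every transcript's 5′ end, all annotated genes except Ensembl type piRNA, and 100 bp around summits for motifs. Python 3.11.15 with numpy 2.4.6 and pandas 2.3.3 was used. All 4 counting checks on simulated data passed.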

Additional observations from a re-analysis of the deposited data

How the results depend on the processing

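The number of genes with a thresholded summit in the gene window stayed at 8 with 2 or 10 kb upstream and with any overlap of the window, and each replicate alone gave 6 to 8. In the upper 50% of regions, a list shorter by construction, 4 genes and 4 of the 15 summits were left. The promoter count of 4 fell to 2 with 500 bp upstream and 100 bp downstream and to 1 in the upper 50%, and each replicate alone gave 3 to 4. The count of summits was 11 to 15 from each replicate alone. With all annotated genes except Ensembl type piRNA competing for the nearest 5′ end, 4 of the genes, not 7, were nearest to a summit. At 100 bp around summits TGATAA and CTGCGTC were each found in 3 regions in place of 1. The other counts and the median signal moved by at most 1.5 times. No paired analysis was possible because there is 1 group. Unknown depth and 2 replicates limit what can be said of regions near the threshold.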

Other observations

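Several regions at these genes stood close to the threshold or in the top regions of 1 replicate alone. Next below the thresholded list came lin-14, with a signal of 42.3 (rank 2416) 7136 bp into the gene and 39.4 (rank 2645) at 9442 bp, and kin-20, with 39.5 (rank 2642) 3593 bp upstream. The 2182 strongest regions of replicate 1 held 1 summit at these genes outside any thresholded region, at lin-14 (32.4, rank 1853), 17213 bp into the gene. Those of replicate 2 held 3: at lin-66 (36.8, rank 1046), 751 bp upstream, at lin-28 (24.5, rank 1727), 2143 bp upstream, and at lin-14 (21.5, rank 2071), 5876 bp into the gene.

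Of the other pathway genes, 3 had a thresholded summit in the gene window but none in the promoter window. The gene sea-2 had one 8516 bp into the gene (signal 65.2). The gene xrn-2 had one 1222 bp upstream (signal 486), 173 bp upstream of Y48B6A.1, and the stronger of 2 at myrf-2 lay 3104 bp upstream (signal 77.7), 225 bp upstream of nucb-1. The weaker one at myrf-2 lay 5652 bp into the gene (signal 59.1).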
